A study of Mus musculus with 2 samples.

Results

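Genomic imprinting restricts transcription of a gene to the copy inherited from the father or from the mother, and imprinted genes lie together in clusters under a shared control region whose DNA methylation is laid down in the germ line. Many of them are expressed in neurons, where they take part in growth control, protein degradation, G protein signalling and RNA processing, and several clusters pair protein-coding genes with long noncoding RNAs that run antisense to a neighbour. The genes described here are 40 imprinted genes of the mouse, taken by gene symbol from the 55536 annotated genes of the deposited tables. They fall into 17 clusters and, by textbook knowledge of parental expression, into 23 paternally expressed genes, 7 maternally expressed genes and 10 whose parental expression varies with tissue or transcript. Parental expression was not measured: the tables hold no allele counts.

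The tissue was left cerebral cortex of 2 adult female B6CASTF1/J mice, aged 8 to 10 months, which are F1 hybrids of C57BL/6J and CAST/EiJ. Replicate 2 is animal 5 and replicate 1 is animal 1, both under the same donor entry in the labels, and they form the only group, so nothing was tested and each value is given per animal. Per the labels, 300 ng of total RNA, reduced for ribosomal RNA and mixed with ERCC spike-ins (synthetic reference transcripts), went into each directional library. The members took 147222 of 30166261 gene counts in replicate 2 and 139649 of 28252339 in replicate 1, which are 0.488% and 0.494%. Of the markers of cortical excitatory neurons, Slc17a7 had 488 TPM in replicate 2 and 452 in replicate 1, Nrgn 683 and 655 TPM, Tbr1 61.5 and 47.2 TPM, and Neurod6 23.05 and 31.99 TPM, while the 6 hypothalamic peptide genes summed to 9.07 and 9.17 TPM.

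Levels are TPM, a length-scaled share of all transcripts that the authors scaled to the same total in each library. Each library has a gene table and a transcript table in the column layout that RSEM writes, together called the first table. It also has a transcript table in the layout that kallisto writes, called the second table. Values are from the first table unless the second is named.

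Snurf is shown by sequence first, because its level turned on how reads were divided between overlapping transcripts. Snurf-201, the only Snurf transcript annotated, is a coding sequence of 216 bases in 3 exons on the minus strand of mouse chromosome 7 (build mm10, chr7:59995449-60005049, GENCODE M21). Its capitals mark the first 10 bases, which are missing from Snrpn-202.
Snurf-201: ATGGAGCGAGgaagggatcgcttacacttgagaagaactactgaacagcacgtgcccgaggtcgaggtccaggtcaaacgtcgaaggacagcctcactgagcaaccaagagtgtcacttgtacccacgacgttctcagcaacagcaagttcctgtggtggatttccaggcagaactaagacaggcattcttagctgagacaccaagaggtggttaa
The whole of this sequence lies inside Snrpn-201, at bases 63 to 278 of its 1932, and the 206 bases after the capitals lie inside Snrpn-202, at bases 224 to 429 of its 2076. All 186 stretches of 31 bases in Snurf-201 are therefore found in Snrpn-201, and 176 of them in Snrpn-202. No base of Snurf tells it from Snrpn-201.

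Promoter windows were read for the members that have one, from 250 bases before to 50 bases after the start site, in RefSeq's table of build GRCm38.p6. Of the 40 members, 32 matched by symbol, with 46 distinct windows. Snurf and Snrpn share a window, and Snrpn has others upstream of it, of which the one at the start of Snrpn-202 is shown because the second table placed nearly all Snrpn RNA there. Mest and Nap1l5 are shown as the members with a window that holds the hexamer TGCCGC, on either strand, more than once. That hexamer is the core of the sequence bound by ZFP57 when methylated, a zinc finger protein that protects imprinted methylation after fertilisation. Capitals mark TGCCGC or its other strand, GCGGCA, and each sequence is given in the direction of transcription.
Snurf and Snrpn shared window, chr7:60005150-60005449, minus strand: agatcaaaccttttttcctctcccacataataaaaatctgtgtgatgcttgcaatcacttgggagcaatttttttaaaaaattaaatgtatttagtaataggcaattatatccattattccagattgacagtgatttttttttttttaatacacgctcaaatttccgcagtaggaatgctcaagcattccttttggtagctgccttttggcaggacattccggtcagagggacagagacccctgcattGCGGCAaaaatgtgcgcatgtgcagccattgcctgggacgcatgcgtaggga
Snrpn upstream window, chr7:60140176-60140475, minus strand: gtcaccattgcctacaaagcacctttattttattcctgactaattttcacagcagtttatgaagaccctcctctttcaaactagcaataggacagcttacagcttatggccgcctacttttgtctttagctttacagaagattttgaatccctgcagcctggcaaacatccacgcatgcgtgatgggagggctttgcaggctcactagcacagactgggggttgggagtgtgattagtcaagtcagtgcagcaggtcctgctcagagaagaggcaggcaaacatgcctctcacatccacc
Mest window, chr6:30737800-30738099, plus strand: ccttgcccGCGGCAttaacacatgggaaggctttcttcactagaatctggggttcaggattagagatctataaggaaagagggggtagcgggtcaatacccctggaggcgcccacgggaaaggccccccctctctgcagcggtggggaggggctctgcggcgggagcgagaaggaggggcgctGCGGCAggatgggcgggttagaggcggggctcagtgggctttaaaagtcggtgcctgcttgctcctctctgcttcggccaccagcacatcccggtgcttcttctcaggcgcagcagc
Nap1l5 window, chr6:58907077-58907376, minus strand: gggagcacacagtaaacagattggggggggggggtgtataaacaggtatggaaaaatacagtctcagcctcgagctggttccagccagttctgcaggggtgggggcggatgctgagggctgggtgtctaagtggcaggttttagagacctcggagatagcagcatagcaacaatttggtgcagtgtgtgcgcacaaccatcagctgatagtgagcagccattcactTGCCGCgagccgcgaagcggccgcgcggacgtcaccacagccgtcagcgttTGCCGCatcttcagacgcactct
The RefSeq start in the Mest window is the GENCODE start of Mest-211, and the GENCODE starts of Snrpn-202, the main Nap1l5 transcript and Snrpn-201 lie 6, 50 and 88 bases downstream of theirs. At least 1 match was found in 11 of the 32 members (34.4%), against 3527 of 27025 genes with a window (13.1%), and at least 2 matches in 2 members (6.25%), against 482 genes (1.78%). Counted by window, since Snurf and Snrpn share a window and a gene can have several, at least 1 match was found in 11 of 46 members' windows (23.9%), against 11.6% of all 32851. Among those 11 are 2 Mest windows that overlap almost fully, chr6:30737800-30738099 and chr6:30737803-30738102. A window shared by genes was counted once among the members' 46 but was not merged among all 32851. The members with a match were Snurf, Snrpn, Zim1, Mest, Copg2, Nap1l5, Nnat, Igf2, Plagl1, Grb10 and Commd1. The median number of CG dinucleotides was 15 in the members' windows and 7 in all 32851 windows. A match is a run of letters in a window and not a bound site, and no difference was tested.

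At 1 TPM or more in both libraries, 32 of the 40 members were detected, against 26.8% of all 55536 genes. Averaged over the animals, 10 members lay at 100 TPM or more, 14 between 10 and 100 TPM, 9 between 1 and 10 TPM and 7 below 1 TPM. The paternally expressed members had a median of 31.4 TPM with 19 of 23 detected, and the maternally expressed members a median of 0.40 TPM with 3 of 7 detected. All 10 members with variable parental expression were detected, with a median of 35.4 TPM. These medians depend on which genes were listed: the maternally expressed RNAs Meg3, Rian and Mirg, described below, are not among the 7. In F1 hybrids each parental copy comes from a single strain. Any loss of CAST/EiJ reads in alignment would therefore fall unequally on the parental classes, which was not tested. In bulk tissue, fewer cells expressing a gene and less RNA per cell cannot be told apart.

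**Figure D1:**
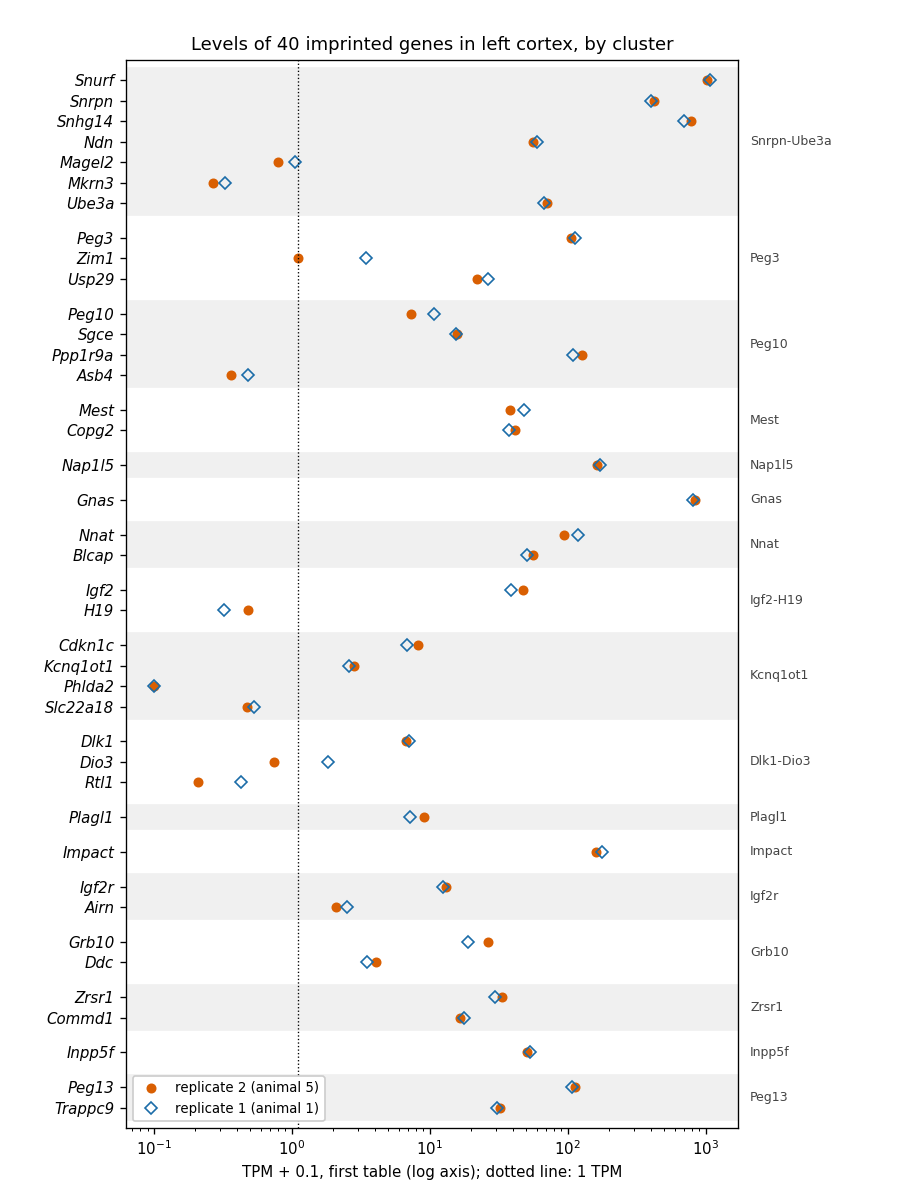
Level of each of the 40 members, as TPM plus 0.1 on a log axis, with members in rows grouped by cluster, filled circles for replicate 2 and open diamonds for replicate 1. Snurf, Gnas and Snhg14 lie farthest right, 7 members average below 1 TPM, and Zim1, Dio3 and Rtl1 show the widest gaps between the animals.

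The Snrpn-Ube3a cluster on chromosome 7 is known in humans for Prader-Willi and Angelman syndromes, and its 7 members summed to 2353 TPM in replicate 2 and 2294 in replicate 1, Snurf included. Snrpn encodes SmN, a core protein of spliceosomal particles in neurons, and Snurf is the upstream reading frame of the same messenger RNA. Snurf had 1028 TPM in replicate 2 and 1076 in replicate 1, or 1052 ± 34.1 TPM (SD, n = 2). Snrpn had 420 TPM in replicate 2 and 401 in replicate 1, or 411 ± 13.7 TPM. Those levels ranked Snurf at position 39 and Snrpn at position 151 among all genes.

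The second table gave another account of the same pair. It listed Snurf at 0 TPM and 0 counts in both libraries, and Snrpn at 346 TPM in replicate 2 and 331 in replicate 1. Counts of Snurf and Snrpn together barely moved between the table types: 16842 in the first table and 15754 in the second for replicate 2, and 15680 and 14610 for replicate 1, ratios of 1.07 in both libraries. TPM of the pair, by contrast, was 4.18 times as high in the first table as in the second for replicate 2 and 4.46 times for replicate 1. In the first table Snurf held 71.0% of the pair's TPM in replicate 2 and 72.8% in replicate 1, but only 13.3% and 14.4% of its counts. The first table divides by an effective length of 116 bases for Snurf, so its 2248 counts in replicate 2 and 2264 counts in replicate 1 became the larger share of the TPM.

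**Figure D2:**
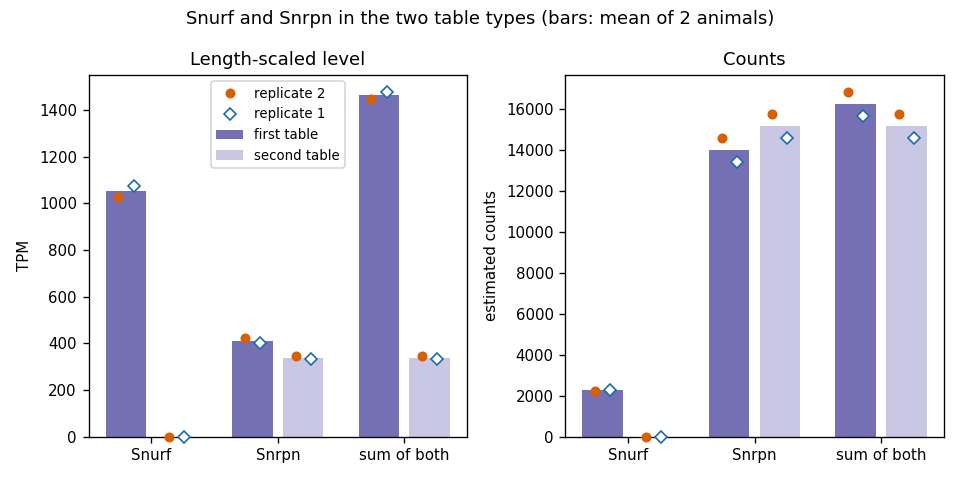
Snurf, Snrpn and their sum in the first table (dark bars) and the second table (light bars), as TPM on the left and as estimated counts on the right, with bars at the mean of 2 animals and a symbol per animal. The sum differs more than 4-fold between the tables in TPM, while in counts it differs by a ratio of 1.07.

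The table types also disagreed on where Snrpn starts. Snrpn-201, which begins 88 bases downstream of the start site in the shared window and so just outside it, carried 93.6% of Snrpn TPM in replicate 2 and 91.8% in replicate 1 in the first table. In the second table Snrpn-202, which begins at the upstream window, carried 99.9% in replicate 2 and 99.8% in replicate 1. Both transcripts share most of their exons. A further gene annotated across the locus on the same strand, Gm38393, had 30.9 TPM in replicate 2 and 25.8 in replicate 1 in the first table, and 63.6 and 50.1 TPM in the second. Which division of the reads is nearer the RNA in the tissue was not tested.

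Snhg14, the long noncoding host of the Snord116 and Snord115 small nucleolar RNAs, is transcribed beyond them and against Ube3a, and in neurons that antisense transcription silences the paternal Ube3a copy. It had 777 TPM in replicate 2 and 689 in replicate 1, at chr7:59307924-59975759 on the minus strand. The 208 small nucleolar RNA genes annotated over it have an effective length of 0 in the first table, so their own levels cannot be read from it. Transcripts that start within 1.33 kb of the first Snhg14 start, nearest Snrpn, together had 43.8 TPM in replicate 2 and 42.3 in replicate 1.

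Along the gene the level peaked at transcripts starting 280 kb downstream, with 398 TPM in replicate 2 and 349 in replicate 1, and again at Snhg14-208, 523 kb downstream, with 126 and 112 TPM. Snhg14-213, the transcript that overlaps Ube3a, was low at 7.64 TPM in replicate 2 and 5.63 in replicate 1, and Snhg14-212, which ends short of Ube3a, had 2.27 and 1.6 TPM. The second table put its peak on Snhg14-205, which starts 269 kb downstream, at 398 TPM in replicate 2 and 373 in replicate 1, where the first table listed 0. Toward Ube3a the 2 table types gave like values, with Snhg14-213 at 6.997 TPM in replicate 2 and 5.33 in replicate 1 in the second.

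**Figure D3:**
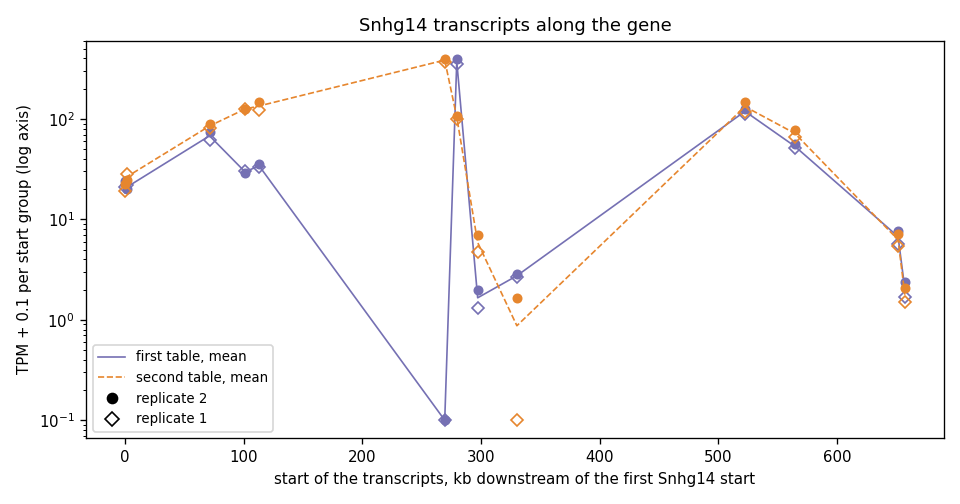
TPM plus 0.1, on a log axis, of Snhg14 transcripts grouped by start, against the distance of the start from the first Snhg14 start in kb, for the first table (solid line) and the second table (dashed line), with filled circles for replicate 2 and open diamonds for replicate 1. The tables part most at 269 kb, where the first lists 0 TPM, and come together at the far end, where the last 2 points of each table lie below 10 TPM.

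Ube3a, the maternally expressed ubiquitin ligase of the cluster, shares 3613 bases of genome with the end of Snhg14 on the opposite strand. Its level was 71.1 TPM in replicate 2 and 67.7 in replicate 1, the highest of the 7 maternally expressed members. No source used here says whether strand entered the counting, so reads in the shared stretch cannot be divided with certainty. Transcripts from the main Ube3a promoter, the longest being Ube3a-203, held 67.7% of its TPM in replicate 2 and 75.3% in replicate 1. In the second table they held 51.0% in replicate 2 and 57.4% in replicate 1.

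Ndn, which encodes necdin, a MAGE family protein of postmitotic neurons, had 56.0 TPM in replicate 2 and 59.4 in replicate 1. Its neighbours on the same stretch of chromosome 7 were far lower. Magel2, a MAGE protein that works with a ubiquitin ligase in endosomal sorting, had 0.69 TPM in replicate 2 and 0.95 in replicate 1, from 59 and 78 counts. Mkrn3, a ring finger protein known in humans as a brake on puberty, had 0.17 and 0.23 TPM, from 8 and 10 counts. These 3 genes share their paternal expression and their neighbourhood but not their level in the cortex.

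The Peg3 cluster, also on chromosome 7, has genes that start head to head: Usp29 begins 147 bases from Peg3 on the opposite strand. Peg3 (chr7:6703892-6730431), a zinc finger transcription factor expressed from the paternal copy, had 105 TPM in replicate 2 and 112 in replicate 1, with 13291 and 14313 counts. Usp29, a paternally expressed ubiquitin protease, had 21.9 TPM in replicate 2 and 26.4 in replicate 1. Zim1, the maternally expressed zinc finger gene beside them, had 1.00 TPM in replicate 2 and 3.33 in replicate 1, the detection limit being just met in replicate 2. Most Usp29 RNA came from the starts beside Peg3, at 19.4 TPM in replicate 2 and 21.7 in replicate 1.

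On chromosome 6, Peg10 and Sgce also start head to head, 99 bases apart. Peg10, a retrotransposon-derived gene with gag and pol reading frames, had 7.22 TPM in replicate 2 and 10.5 in replicate 1, whereas Sgce, epsilon-sarcoglycan of the dystrophin-associated complex, had 15.6 and 15.4 TPM. Sgce was thus close in the animals and Peg10 was not. Ppp1r9a, which encodes neurabin, an actin-binding regulator of a protein phosphatase at dendritic spines, was the highest gene of the cluster at 126 TPM in replicate 2 and 109 in replicate 1, and 96.1% and 97.8% of that came from transcripts at its first starts. Asb4, a maternally expressed adaptor of ubiquitin ligases, lay at 0.26 and 0.38 TPM.

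Mest, a paternally expressed enzyme of the alpha/beta hydrolase family, had 38.1 TPM in replicate 2 and 48.1 in replicate 1. Transcripts from the start in the printed Mest window made up 94.7% of that in replicate 2 and 98.4% in replicate 1. The second table gave that start 17.6 TPM in replicate 2 and 22.5 in replicate 1, and put 8.60 and 7.62 TPM on starts 4.6 kb upstream that the first table listed at 0. Copg2, a coatomer subunit whose tail shares 912 bases with Mest on the other strand, had 41.1 TPM in replicate 2 and 37.6 in replicate 1.

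Gnas, the stimulatory G protein alpha subunit, was the second highest member at 830 TPM in replicate 2 and 806 in replicate 1. Its locus (chr2:174284320-174346744, plus strand) has several promoters with different parental expression. Transcripts from the last main promoter, which makes the common alpha subunit and is expressed from both copies in most tissues, held 93.9% of Gnas TPM in replicate 2 and 92.9% in replicate 1. The group of starts just upstream of it, which includes the untranslated first exon expressed from the paternal copy, had 40.6 and 45.6 TPM in the first table but 160 and 194 TPM in the second. The first promoter of the locus, of the maternally expressed secretory protein Nesp55, gave 3.60 TPM in replicate 2 and 3.10 in replicate 1. The paternally expressed promoter of the extra-large alpha subunit gave 0.08 and 0.13 TPM.

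Several members are small genes that arose by retrotransposition or lie inside a larger host gene. Nap1l5 (chr6:58905233-58907076), a nucleosome assembly protein gene inside Herc3, had 162 TPM in replicate 2 and 172 in replicate 1, against 77.2 and 115 TPM for Herc3. Nnat (chr2:157560078-157562522), neuronatin, a membrane protein of developing and adult neurons inside Blcap, had 94.3 TPM in replicate 2 and 118 in replicate 1, against 55.7 and 50.9 TPM for Blcap, an apoptosis-related gene. Both guests therefore stood above their hosts in each animal, and neither shares exon bases with its host. Of the Nnat transcripts, Nnat-202 led in the first table with 61.9 TPM in replicate 2 and 76.7 in replicate 1, while Nnat-205 led in the second with 39.5 and 57.1 TPM.

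Peg13 (chr15:72805600-72810324), a paternally expressed noncoding RNA inside Trappc9, had 113 TPM in replicate 2 and 108 in replicate 1. Trappc9, a subunit of a vesicle-tethering complex, had 32.1 TPM in replicate 2 and 30.7 in replicate 1, so Peg13 was 3.52 and 3.51 times its host. Peg13 lies on the same strand as Trappc9, within an intron, and reads of unspliced Trappc9 RNA could not be told from it. Zrsr1, a splicing factor retrogene, had 33.3 TPM in replicate 2 and 29.5 in replicate 1, against 16.3 and 17.7 TPM for its host Commd1, a regulator of copper handling. Commd1 shares its strand with Gm28048, which took 436 counts in replicate 2 and 486 counts in replicate 1 against 166 and 191 for Commd1, so the Commd1 level is uncertain. Zrsr1 also shares 412 exon bases with Commd1 on the opposite strand, where reads cannot be divided with certainty, as with Snhg14 and Ube3a. Outside the 40 genes, the retrogene Mcts2 went the other way, with 8.82 TPM in replicate 2 and 6.18 in replicate 1, against 28.2 and 34.3 TPM for its host H13.

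Antisense noncoding RNAs gave the other kind of pair. Kcnq1ot1 (chr7:143203458-143296549), the paternally expressed RNA that silences genes around Kcnq1, had 2.74 TPM in replicate 2 and 2.5 in replicate 1. Kcnq1 itself had 0.54 and 0.63 TPM, from only 10 and 21 counts. Because Kcnq1ot1 is 93092 bases long, its low levels rest on 4803 counts in replicate 2 and 4224 counts in replicate 1. Kcnq1ot1 shares 121 exon bases with Kcnq1 on the opposite strand, so the same limit holds for this pair. Airn, which silences Igf2r on the paternal copy in many tissues, had 1.99 TPM in replicate 2 and 2.43 in replicate 1, from 30 and 38 counts. Igf2r, the receptor that carries Igf2 to lysosomes, had 13.03 and 12.34 TPM. Airn stood below the gene it overlaps and Kcnq1ot1 above. The 2 RNAs were measured on unlike gene models, since the Airn transcripts averaged 898 bases in replicate 2 and 962 in replicate 1.

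**Figure D4:**
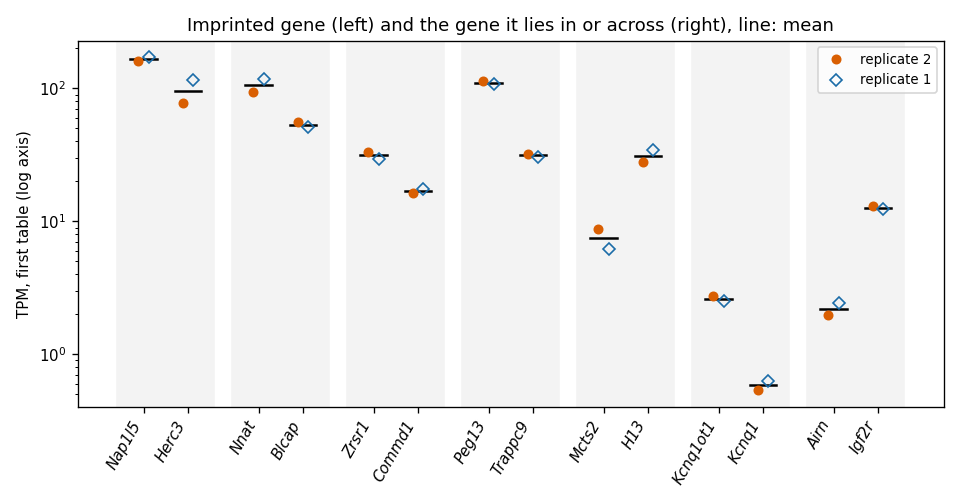
TPM on a log axis of imprinted genes (left of each shaded pair) and the gene they lie in or across (right), with filled circles for replicate 2, open diamonds for replicate 1 and a line at the mean. In 5 of 7 pairs the left gene is higher in each animal, of which Zrsr1 and Kcnq1ot1 share exon bases with the other gene on the opposite strand; Mcts2 and Airn are lower than H13 and Igf2r.

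In the Igf2-H19 cluster, Igf2 (chr7:142650766-142666816), the fetal growth factor that the meninges and choroid plexus express in the adult brain, had 47.1 TPM in replicate 2 and 38.6 in replicate 1. H19, the maternally expressed noncoding RNA beside it, had 0.38 and 0.22 TPM, from 6 and 3 counts. Markers of the meninges (Col1a1, Col1a2, Slc6a13, Lum, Ogn and Dcn) were higher in TPM in replicate 2 in 6 of 6, with a summed level of 34.7 TPM in replicate 2 and 27.6 in replicate 1. In counts scaled as described below, 4 of the 5 measured were higher in replicate 2, against 45.6% of all genes, and none passed 1.5-fold. Markers of the choroid plexus summed to 61.6 TPM in replicate 2 and 180 in replicate 1, of which Ttr, the transthyretin gene, made 55.7 and 172 TPM. Of the 6 choroid plexus markers 1 was higher in replicate 2, Otx2, at 1.81 TPM in replicate 2 and 0.56 in replicate 1. The part of either tissue in the Igf2 level was not tested.

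The 4 members of the neighbouring Kcnq1ot1 cluster each lay below 10 TPM, although other genes of that domain, among them Cd81, were higher. Cdkn1c, a maternally expressed inhibitor of cyclin-dependent kinases, had 8.07 TPM in replicate 2 and 6.69 in replicate 1. Slc22a18, a transporter gene, had 0.37 and 0.43 TPM. Phlda2, a gene that restrains placental growth, had 0 counts in both libraries, which allows up to 0.399 TPM in replicate 2 and 0.415 in replicate 1, the level of 3 counts. Those limits cover counting error only.

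The paternally expressed coding genes of the Dlk1-Dio3 cluster on chromosome 12 were also low. Dlk1 (chr12:109452823-109463336), a noncanonical Notch ligand, had 6.58 TPM in replicate 2 and 7.02 in replicate 1. Dio3, the deiodinase that inactivates thyroid hormone, had 0.64 and 1.74 TPM, from 18 and 61 counts. Rtl1, a retrotransposon-derived gag-like gene, had 0.11 and 0.33 TPM, from 13 and 38 counts. The maternally expressed noncoding RNAs of the same cluster stood far above them: Meg3 at 1010 TPM in replicate 2 and 624 in replicate 1, Rian at 524 and 441 TPM, and Mirg at 47.9 and 33.0 TPM.

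Of the remaining members, Impact, an inhibitor of the kinase Gcn2 that is abundant in neurons, had 161 TPM in replicate 2 and 178 in replicate 1. Impact-201 carried 106 TPM in replicate 2 and 114 in replicate 1 in the first table, and the short Impact-206 carried 10.3 and 19.3 TPM there but 72.3 and 79.6 TPM in the second. Plagl1, a zinc finger transcription factor, had 8.92 and 7.06 TPM. Inpp5f, an inositol phosphatase gene, had 50.9 and 53.4 TPM, and transcripts that start 76.2 kb inside it held 59.7% of that in replicate 2 and 68.7% in replicate 1. In the second table those transcripts held 47.6% in replicate 2 and 51.9% in replicate 1. A brain transcript that starts inside Inpp5f is the imprinted product of that locus. Transcripts from the first Inpp5f start had 14.02 TPM in replicate 2 and 13.2 in replicate 1.

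Grb10, an adaptor of insulin and growth factor receptors, is expressed from the maternal copy in most tissues and from the paternal copy in neurons, where other promoters are used. It had 26.3 TPM in replicate 2 and 18.9 in replicate 1. The full-length transcript from the upstream promoter held 49.9% and 51.6% of that, and the transcripts from starts 10.71 to 11.95 kb downstream held 42.0% in replicate 2 and 46.1% in replicate 1. In the second table the full-length Grb10 transcript had 11.3 TPM in replicate 2 and 9.19 in replicate 1, and those downstream starts had 5.18 and 3.56 TPM, or 25.2% and 26.6%, against 11.03 and 8.71 TPM in the first table. Ddc, the aromatic amino acid decarboxylase of monoamine neurons beside Grb10, had 3.95 and 3.41 TPM. The first table put most Ddc TPM on Ddc-202, at 3.22 TPM in replicate 2 and 2.30 in replicate 1, and the second on Ddc-210, at 2.67 and 2.21 TPM.

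Between the table types, mean levels of the members were close apart from Snurf. Of the 33 members at 1 TPM or more in either table, 1 differed past 2-fold, which was Snurf, against 10% of 16852 genes, 3.77% higher in the first table and 6.27% higher in the second. At 1.5-fold Snhg14, at 733 TPM in the first table and 1100 TPM in the second, and Airn, at 2.21 and 3.84 TPM, were added. The median log2 ratio of first to second table, on TPM plus 0.1, was 0.13 over the members and 0.13 over all genes. The transcript with the highest TPM was another one in the second table in 8 of 28 members (28.6%), against 18.9% of 12236 genes. Those 8 were Snrpn, Snhg14, Peg10, Copg2, Nnat, Igf2, Zrsr1 and Ddc.

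The animals were compared on log2 counts scaled with TMM factors, which correct library size for composition, as replicate 2 minus replicate 1, in the 32 members that averaged 50 counts or more. The error given is the counting SE, from the counts alone, so it leaves out variation between animals. Counts were not corrected for transcript length, so a difference can depart from that in TPM. Past 1.5-fold were 2 members, Zim1 and Peg10, both lower in replicate 2. That is 6.25% of the members measured, against 6.06% of 14127 genes in either direction and 2.34% lower in replicate 2. Zim1 had 79 counts in replicate 2 and 161 in replicate 1, a log2 difference of -1.15 ± 0.20 (counting SE), and was the only member past 2-fold, against 1.26% of all genes. Peg10 had 884 and 1239 counts, a log2 difference of -0.62 ± 0.064. Scaled by library totals, Peg10 no longer passed, and scaled by spike-ins Zim1 and Cdkn1c did and Peg10 did not.

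The members differed between the animals about as much as all genes did. The median size of the log2 difference, regardless of sign, was 0.16 over the members and 0.15 over all genes, and 24 of 32 members (75.0%) lay within 1.2-fold, against 72.6% of all genes. Under TMM factors 24 of the 32 members were lower in replicate 2, against 54.4% of all genes. Under library totals 16 were, against 45.9% of all genes, and under spike-in totals, which raise the median of all genes by 0.28, 6 were, against 11.9%. Among the paternally expressed members 16 of 19 were lower with TMM factors, 12 with library totals and 4 with spike-ins. All of these are directions in counts, and in TPM some members go the other way. Plagl1, with a log2 difference of -0.16 under TMM factors, had 8.92 TPM in replicate 2 and 7.06 in replicate 1. The deposited TPM bounds of the animals did not overlap in 12 of 32 members (37.5%), against 19.8% of all genes. Those 12 were Snrpn, Snhg14, Zim1, Usp29, Peg10, Ppp1r9a, Mest, Gnas, Nnat, Kcnq1ot1, Grb10 and Peg13. For 10 of the 40 members the TPM of each library lay outside its own bounds, so the count of 12 is a description only. The members were also not matched to all genes on counts, on which the width of bounds can depend. In replicate 2 the bounds of Kcnq1ot1, with 4803 counts, were 2.56 to 2.71 TPM. Those of Cdkn1c, with 190 counts, were 6.89 to 10.06 TPM.

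**Figure D5:**
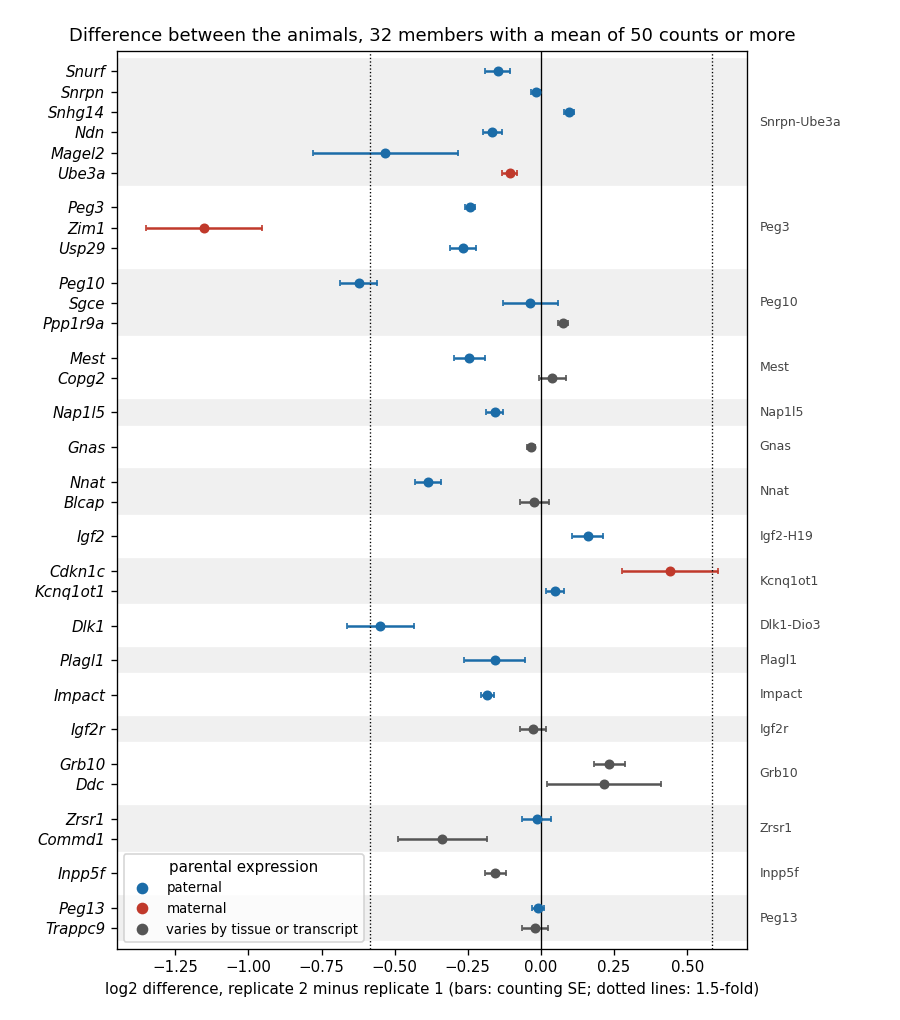
Log2 difference between the animals, replicate 2 minus replicate 1 with TMM factors, for the 32 members with a mean of at least 50 counts, by cluster, with bars of the counting SE, dotted lines at 1.5-fold and colour for parental expression. Zim1 and Peg10 lie left of the dotted line and no member lies right of the other.

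Neighbours did not always move together. In the Dlk1-Dio3 cluster Dlk1 differed by -0.55 ± 0.12 (counting SE), and Dio3 and Rtl1, below the count minimum, by -1.84 ± 0.39 and -1.61 ± 0.46, while Meg3 differed by 0.69 ± 0.0096. Dlk1 was closer in TPM, at 6.58 in replicate 2 and 7.02 in replicate 1, with effective lengths of 2207 and 2865 bases. Meg3 had 62776 counts in replicate 2 and 35296 in replicate 1. In the Peg3 cluster Peg3 and Usp29 differed by -0.24 ± 0.017 and -0.27 ± 0.045 beside the larger difference of Zim1. In the Nnat cluster Nnat differed by -0.39 ± 0.045 and its host Blcap by -0.02 ± 0.050. In the Peg10 cluster Sgce, which starts beside Peg10, differed by -0.04 ± 0.094. The largest differences above 0 among the members measured were 0.44 ± 0.17 for Cdkn1c, 0.23 ± 0.054 for Grb10 and 0.22 ± 0.20 for Ddc.

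Of 35 other imprinted or neighbouring genes, 22 were detected, against 26.8% of all genes. The highest were Meg3, Rian and Cd81, a tetraspanin at 200 TPM in replicate 2 and 178 in replicate 1. Past 1.5-fold between the animals were 3 of the 21 measured, against 6.06% of all genes in either direction. Meg3 was higher in replicate 2, as were 3.72% of all genes, and Zdbf2 and Cobl were lower, as were 2.34%. Zdbf2, a zinc finger gene, had 1197 counts in replicate 2 and 1802 in replicate 1. Cobl, an actin nucleator beside Grb10, had 3282 and 4577 counts. Of 13 genes that set or keep imprints, 10 were detected, against the same 26.8% of all genes. None of the 10 measured passed 1.5-fold, against 6.06% of all genes. Trim28, the co-repressor that ZFP57 recruits, had 103 TPM in replicate 2 and 90.7 in replicate 1, and Ehmt2, a histone methyltransferase, 86.0 and 82.7 TPM. Zfp445, a zinc finger protein with a like role to ZFP57, had 77.2 TPM in replicate 2 and 61.0 in replicate 1, and Zfp57 itself 4.23 and 4.55 TPM.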

How the data were processed

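The readme deposited with the files names genome build mm10 and the GENCODE M21 annotation, and no source used here names the aligner or the quantification tools. Expected counts and estimated counts were deposited by the authors per gene or transcript, not normalized, with reads that match several features divided by a model. TPM was scaled by the authors over all features. Per the file headers, the transcript part of the first table also holds each transcript's percent of its gene. The deposited credibility bounds and posterior SD are scores whose level is not stated. Alignment to the reference may lose reads from the CAST/EiJ copy.

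From these, expected counts were rounded and scaled with TMM factors in edgeR 4.0.16 (R 4.3.3), with a prior count of 1. Tables were joined in pandas 2.3.3, and the scripts were tested on simulated data. Total expected counts were 30234441 in replicate 2 and 28327434 in replicate 1, and the libraries differed beyond sampling noise (chi-square over degrees of freedom 14.3, in 18246 genes). Second-table TPM was summed by gene. Transcript starts within 1000 bases were joined. With 1 group of 2 animals no test was run. The members, their clusters and the gene lists were chosen with earlier results of these data known. The excitatory neuron list is given in part, and the rest of it is not reported here. All members are named, of each list of imprinted or imprint-keeping genes the 3 highest and those past 1.5-fold. Alternatives were other scalings (DESeq2 1.42.0 size factors, totals, spike-ins), count minimums, prior counts, units, table types, and each animal alone.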

Additional observations from a re-analysis of the deposited data

How the results depend on the processing

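Of 53 alternative values, 32 stayed near the main value and 21 moved. A count stayed if within 1.5 times the main count, and a level if within the SD of the 2 animals. The median log2 difference stayed if within the SD of the differences over the members, which was wide enough to hold its change of sign with spike-in totals. With 2 animals, the level of Snurf, Snrpn or their sum in 1 animal always lies within the SD of the 2, so those values could not move. The class medians were held in nearly the same way. The number of members detected ran between 28 at 5 TPM and 34 at 0.5 TPM. The paternal median was 22.8 TPM in the second table and 61.9 TPM when TPM was rescaled over nuclear protein-coding and lincRNA genes. The maternal median was 0.342 TPM in the second table, 0.655 TPM with posterior means and 0.790 TPM rescaled. Snurf was at 0 TPM in the second table, 1013 TPM with posterior means and 77.3 CPM, counts scaled by library size alone; Snrpn was at 339 TPM, 395 TPM and 479 CPM, and their sum at 339 TPM, 1408 TPM, 557 CPM and, with Gm38393 added after the data were seen, 1491 TPM. Members past 1.5-fold between the animals numbered 1 with library totals (Zim1), 1 with a minimum of 200 counts (Peg10), 1 at 2-fold (Zim1), 4 in the second table, where Dlk1 and Magel2 joined, and 6 with no minimum, where Asb4, Dio3, H19 and Rtl1 joined. The median log2 difference was -0.07 and became 0.20 with spike-in totals. Past 1.5-fold between table types were 3 members. With each animal alone, 32 to 33 members were detected, the paternal median was 29.5 to 33.3 TPM and the maternal 0.38 to 0.43 TPM, Snurf was 1028 to 1076 TPM, Snrpn 401 to 420 TPM and their sum 1448 to 1477 TPM, and 1 member differed between table types. The cause of each move was not tested beyond the change of setting itself. A difference between the animals needs both libraries and has no value with either left out. No paired analysis was possible because there is 1 group.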
